A study of Mus musculus with 5 samples.

Results

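The interleukin-1 system is described here by 9 genes out of the 16498 in the single-cell table of atherosclerotic mouse aortic arch: the ligands Il1a, Il1b and Il18, the antagonist Il1rn, the decoys Il1r2 and Il18bp, the receptor Il1r1, and the inflammasome genes Nlrp3 and Casp1. The genes were taken by name, not by a filter on their values, though earlier results of these data were known. All 9 were in the table. Each was followed across 8 cell classes and across 2 groups of libraries. Across 18260 cells the summed counts of unique molecular identifiers (UMIs, one per captured RNA molecule) ran from 709 for Il18 to 29226 for Il1b.

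Interleukin-1α and interleukin-1β, the products of Il1a and Il1b, act on the same receptor, IL1R1, whose signal passes through MyD88 and NF-κB to chemokines, adhesion molecules and proteases of the vessel wall. Interleukin-1β and interleukin-18 are made as inactive precursors that caspase-1 cuts within inflammasomes such as that of NLRP3, whereas the interleukin-1α precursor is already active and needs no caspase-1. The pathway is restrained by IL-1RA (Il1rn), which occupies the receptor without signalling, by the decoy receptor IL1R2, and by IL-18BP, which binds interleukin-18 in solution. In atherosclerosis it is known mainly as a product of plaque macrophages and other myeloid cells.

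The study asked what loss of Oasl1, an interferon-stimulated gene, does to the atherosclerotic aorta. Cells came from the aortic arch, from the root to the curvature, of mice that had eaten normal chow for 28 weeks, with the perivascular fat removed, and live cells were sorted by DAPI. One group was Oasl1+/+Apoe-/- (2 libraries, Apoe-/- replicates 1 and 2) and the other Oasl1-/-Apoe-/- (3 libraries, replicates 1 to 3), so that both groups lacked Apoe, the loss of which causes hypercholesterolaemia and plaques. The Oasl1 allele lacks the promoter and exon 2 in every cell of the body, and the number of mice behind a library is not given in the sources used here, so the p-values below measure the spread between libraries, which may be technical.

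Oasl1 itself was measured at 0.0145 and 0.00854 CP10K in the whole Apoe-/- libraries and at 0.169, 0.163 and 0.198 CP10K in those labelled Oasl1-/-Apoe-/-, which is the opposite of what the label would give for a gene without transcript. CP10K is the number of UMIs of a gene per 10000 UMIs of a cell, averaged over cells. The counts are of 3′ tags and the table does not say where in the gene they lie, so they do not check the deletion of the promoter and exon 2, and whether the labels are right was not tested. The second group is therefore called the labelled libraries throughout, and every direction given below is that of the labelled libraries relative to Apoe-/- and rests on those labels. Apoe was low in both groups, from 0.146 to 0.177 CP10K.

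The 250 bases before the transcription start of 4 members are shown, because Il1a, which lies 54597 bases from Il1b on the same strand of chromosome 2, was called in macrophages and Il1b was not, while Casp1 was called in macrophages and monocytes and Il18bp in dendritic cells. They are from RefSeq on GRCm38.p6, 5′ to 3′ on the strand of the gene: Il1a at chr2:129309973-129310222 (minus strand), Il1b at chr2:129371140-129371389 (minus), Il18bp at chr7:102018233-102018482 (minus) and Casp1 at chr9:5298267-5298516 (plus). Capitals mark the TATA letters TATAAA in Il1a and Il1b, the C/EBP letters TTGCNNAA in Il18bp, and the PU.1 letters AGAGGAA, on the opposite strand, in Casp1.
Il1a: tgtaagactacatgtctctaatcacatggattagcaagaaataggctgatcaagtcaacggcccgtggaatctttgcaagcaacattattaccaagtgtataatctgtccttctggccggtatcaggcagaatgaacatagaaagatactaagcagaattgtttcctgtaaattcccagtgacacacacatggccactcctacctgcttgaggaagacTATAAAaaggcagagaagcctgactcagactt
Il1b: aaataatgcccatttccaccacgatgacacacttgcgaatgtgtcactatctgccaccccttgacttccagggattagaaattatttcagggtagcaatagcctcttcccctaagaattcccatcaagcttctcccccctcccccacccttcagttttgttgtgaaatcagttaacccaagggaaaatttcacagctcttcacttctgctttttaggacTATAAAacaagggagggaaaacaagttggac
Il18bp: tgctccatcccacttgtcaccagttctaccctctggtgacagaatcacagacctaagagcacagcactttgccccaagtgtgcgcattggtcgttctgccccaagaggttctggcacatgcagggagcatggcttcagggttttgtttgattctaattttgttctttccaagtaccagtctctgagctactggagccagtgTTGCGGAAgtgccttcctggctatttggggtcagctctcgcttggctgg
Casp1: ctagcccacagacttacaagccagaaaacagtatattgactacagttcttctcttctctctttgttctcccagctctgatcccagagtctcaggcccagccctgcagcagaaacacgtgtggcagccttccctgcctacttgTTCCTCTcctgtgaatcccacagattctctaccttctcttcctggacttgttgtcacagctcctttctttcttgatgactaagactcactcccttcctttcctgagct

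By the GRCm38 annotation Il1a spans chr2:129299610-129309972, Il1b chr2:129364570-129371139, Il1rn chr2:24336853-24351494, Il1r1 chr1:40225080-40317257, Il1r2 chr1:40074079-40125231, Il18 chr9:50554827-50581840, Il18bp chr7:102014885-102018690, Nlrp3 chr11:59541568-59566956 and Casp1 chr9:5298517-5307265, all protein-coding. All 9 members matched a RefSeq promoter. TATAAA stood on the gene's strand between 40 and 21 bases before the start in Il1a (bases -32 to -27) and Il1b (-31 to -26) and in no other member, against 1.87% of the 32851 promoters in the table. TATAAA anywhere in the 250 bases, on either strand, occurred in 12.4% of promoters and in Il18, Il1a and Il1b. TTGCNNAA occurred in 9.56% of promoters and in Il18bp and Il1r1, AGAGGAA in 8.55% and in Casp1 and Nlrp3, and the STAT letters TTCNNNGAA in 7.02% and in Il1r2. The interferon response letters GAAANNGAA (7.13% of promoters) and the NF-κB letters GGGANTTTC (0.941%) were found in no member, each searched on both strands. A match is a run of letters and was not tested as a binding site.

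The libraries held 3212 to 4338 cells with medians of 4495 to 5186.5 UMIs and 16959976 to 19813039 UMIs in all. Cells were assigned to classes by clusters rebuilt here from fixed markers, with every gene of the member and pathway lists kept out of the clustering, so that a name such as macrophage means a cluster with that marker profile (macrophage-like). Clusters of 909 cells stayed unnamed, among them 705 cells with a median of 1321.0 UMIs and macrophage markers. When cells were instead gated one by one on the markers, the fibroblast class held 566 smooth muscle and 380 fibroblast cells. By that gate the monocyte class held 113 macrophage and 63 monocyte cells. The gate left 484 cells of the fibroblast class and 220 of the monocyte class without a name. Libraries shared 6 to 22 barcodes per pair. Summed UMIs of replicates of a group differed by more than UMI counting noise, with chi-square per degree of freedom from 3.59 to 8.70. That measure takes UMIs as independent and does not cover the sampling of cells. Macrophages made up 7.79% ± 0.155 (SD, n = 2) of Apoe-/- cells and 18.2% ± 0.974 (n = 3) of labelled cells, smooth muscle cells 66.1% ± 1.82 and 43.8% ± 0.221, and fibroblasts 4.57% ± 0.536 and 10.9% ± 0.363.

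In all cells of a library, 7 of the 9 members were higher in the labelled libraries and 2, the receptors Il1r1 and Il1r2, did not pass the test. The test was limma on log2(mean CP10K + 0.05) over 9836 genes with Benjamini-Hochberg adjustment and a threshold of 0.05, and it called 41.1% of all genes tested. The median of the members was 0.75 on the log2 scale against -0.03 over all genes. The largest difference among the members was that of Il1rn, which stood at 0.330 and 0.306 CP10K in Apoe-/- and at 1.09, 0.989 and 0.989 CP10K in the labelled libraries. The groups were far apart, and the fitted rise was 1.54 ± 0.06 (SE) on the log2 scale, or 2.91-fold (limma adjusted p = 5.84e-08).

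Casp1, the protease that matures interleukin-1β and interleukin-18, rose from 0.0754 and 0.0713 CP10K to 0.225, 0.213 and 0.224 CP10K in whole libraries (log2 difference 1.13 ± 0.07, limma adjusted p = 7.10e-07). Il1b was at 2.65 CP10K in both Apoe-/- libraries and at 4.93, 5.47 and 4.46 CP10K in the labelled ones, a rise of 0.89 ± 0.07 (limma adjusted p = 5.52e-06). Il1a moved least among the ligands, from 0.127 and 0.104 CP10K to 0.223, 0.189 and 0.167 CP10K, with 0.55 ± 0.10 (limma adjusted p = 0.00171, and 0.12 on the mean of the deposited log values). For each of these genes every labelled library lay above both Apoe-/- libraries. Il18bp (0.80 ± 0.07), Nlrp3 (0.75 ± 0.07) and Il18 (0.71 ± 0.09) rose by sizes between those of Il1a and Il1b. The receptor Il1r1 was at 0.179 and 0.159 CP10K against 0.154, 0.176 and 0.173 CP10K, and Il1r2 at 0.404 and 0.349 CP10K against 0.542, 0.419 and 0.401 CP10K, so both genes overlapped between the groups (limma adjusted p = 0.915 and 0.112). Il1r2 passed, and 8 members were then called, with summed UMIs (0.53 ± 0.12, limma adjusted p = 0.00558), with limma-voom on them (0.62) and in cells with at least 1000 UMIs (0.62). Over all genes, 4789 of 9836, 4790 of 9836 and 4167 of 9833 were called in these settings. The sign of Il1r2 turned with the same cluster shares described next (-0.29 ± 0.09, adjusted p = 0.107).

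In such whole-tissue values, more cells of a type and more RNA per cell cannot be told apart. When each library was reweighted to the same cluster shares, 3 of the 9 members still passed, where 6.5% of 9819 genes were called: Il1rn at 0.84 ± 0.08 (limma adjusted p = 0.000106), Casp1 at 0.48 ± 0.10 (0.0186) and Il18bp at 0.28 ± 0.07 (0.0322). Il1a (0.06 ± 0.10), Il18 (0.11 ± 0.09), Nlrp3 (-0.04 ± 0.08) and Il1b (-0.14 ± 0.09) no longer passed, and the last 2 changed sign. All the reweighted values lean in part on clusters with few Apoe-/- cells. Among them were the macrophage cluster led by Ccl12 (10 and 11 Apoe-/- cells) and the cartilage-like cells (10 and 8).

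**Figure D1:**
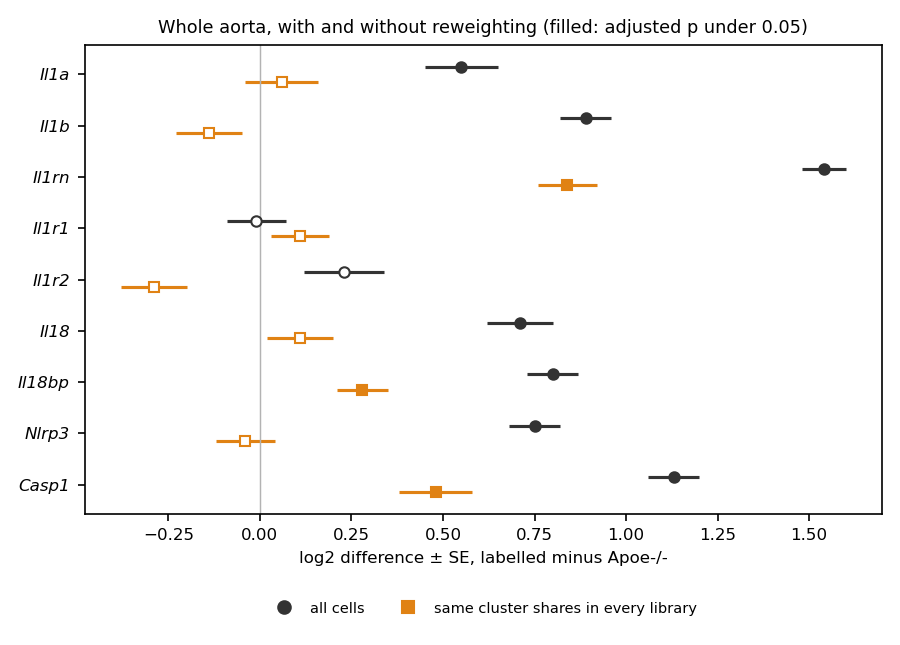
Log2 difference of each member between the labelled libraries and Apoe-/- in all cells (black circles) and with the same cluster shares in every library (orange squares), with bars of 1 SE; filled points had a limma adjusted p under 0.05. For Il1rn the difference went from 1.54 to 0.84 after reweighting and for Il1b from 0.89 to -0.14.

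The members divided between cell classes in 3 ways. Il1a, Il1b, Il1rn, Il1r2 and Nlrp3 were myeloid and reached their highest levels in neutrophils, which were few (21 to 27 cells per library). Il18bp was, of the named classes, highest in macrophages. Il1r1 was found in fibroblasts, smooth muscle cells and endothelial cells and scarcely in macrophages (6 UMIs in 2444 cells). Counting all UMIs, macrophages held 52.1% of Il1a, 38.6% of Il1b and 76.0% of Il18bp, and dendritic cells held 58.8% of Il1r2.

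**Figure D2:**
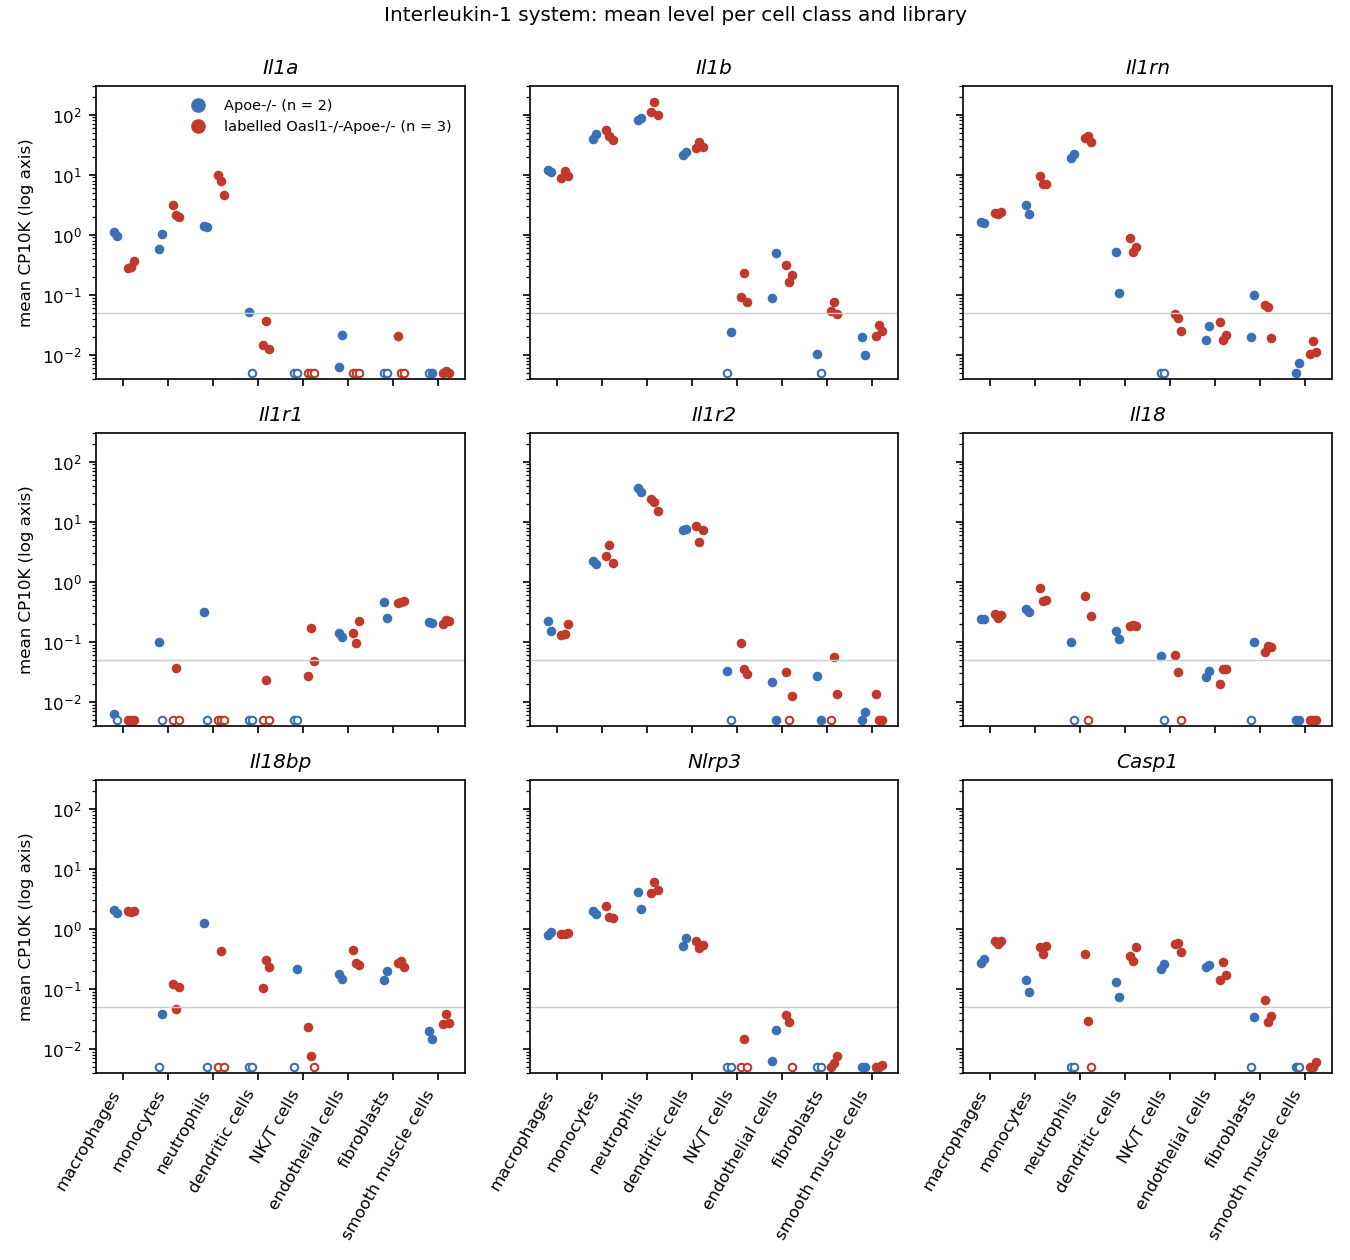
Mean CP10K of each member in each of the 8 classes, one point per library (2 Apoe-/-, 3 labelled), on a log axis; libraries at 0 are open points at 0.005, values below 0.005 are also drawn there, and the grey line at 0.05 is the level needed for a test. Il1a falls in macrophages while it is higher in monocytes, and Il1r1 lies below the line in macrophages.

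Il1a showed opposite differences in macrophages and monocytes. In macrophages it was at 1.12 and 0.965 CP10K in Apoe-/- and at 0.277, 0.287 and 0.372 CP10K in the labelled libraries. No labelled library came near either Apoe-/- library, and the gene fell by 1.60 ± 0.13 (SE) on the log2 scale to 0.33 of its level (limma adjusted p = 2.10e-07). In this class 3 of the 8 members tested were called (Il1a lower, Il1rn and Casp1 higher), where 17.7% of 7899 genes were called, and Il1r1 was under the filter. In macrophages without a Gpnmb UMI 6 members were called, Il1rn, Casp1 and Il18bp higher and Il1a, Il1b and Nlrp3 lower, where 4.96% of 7910 genes were called, and with the 3 clusters described below weighted equally 2, Il1a and Il1b, both lower, where 1.46% of 7861 genes were called. The count was 4 with a Gpnmb UMI (9.5% of genes called), without the Ccl12 cluster (9.53%) and in cells gated by markers (16.3%). Cells with at least 1 Il1a UMI made up 29.9% of Apoe-/- macrophages (196 of 655, 95% Wilson interval 26.5% to 33.5%) and 9.89% of labelled ones (177 of 1789, 8.59% to 11.4%). These intervals cover counting error only. With every cell thinned to 1000 UMIs the shares were 8.28% and 2.54%. Smooth muscle cells, which should lack the gene, had an Il1a UMI in 0.0180% and 0.162% of cells at median depths of 4781 and 5035 UMIs, against 6115 and 5791 in macrophages.

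Il1b did not pass the test in macrophages. It was at 11.9 and 11.0 CP10K in Apoe-/- and at 8.78, 11.7 and 9.49 CP10K in the labelled libraries, with labelled replicate 2 inside the Apoe-/- range. The difference of -0.20 ± 0.09 on the log2 scale did not pass (limma adjusted p = 0.138), but passed without labelled replicate 2 (-0.32, adjusted p = 0.0102). Il1b UMIs were in 39.7% of Apoe-/- and 42.3% of labelled macrophages (26.2% and 28.2% after thinning), against 0.665% and 1.28% of smooth muscle cells. The log2 level of Il1a minus that of Il1b was -3.35 and -3.44 in Apoe-/- and -4.75, -5.12 and -4.50 in the labelled libraries. The groups did not overlap, and the offset moved by -1.39 (two-sided exact permutation p = 0.1, the smallest that 2 against 3 libraries allow). Among macrophages with an Il1a UMI, 43.9% to 55.1% per Apoe-/- library and 41.4% to 60.4% per labelled library also had an Il1b UMI.

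The macrophage class was made of different clusters in the 2 groups. The cluster led by Fcrls had 125 and 114 cells in Apoe-/- and 222 to 237 per labelled library, that led by Gpnmb, a gene of lipid-laden macrophages, had 187 and 208 against 118 to 147, and that led by Ccl12 had 10 and 11 against 208 to 254. In the Fcrls cluster 3 members and 2.04% of genes were called, and in the Gpnmb cluster 4 members and 4.04% of genes. Within the Fcrls cluster Il1a was at 1.18 and 0.476 CP10K against 0.153, 0.285 and 0.243 CP10K (log2 difference -1.57 ± 0.29, limma adjusted p = 0.00513). Within the Gpnmb cluster it was at 1.12 and 1.25 CP10K against 0.669, 0.443 and 0.917 CP10K (-0.82 ± 0.20, adjusted p = 0.0199). Il1a thus fell in both clusters, and the 3 clusters weighted equally gave -1.11 ± 0.18 (adjusted p = 0.0355). Equal weights lean on the Ccl12 cluster, whose 10 and 11 Apoe-/- cells are under the 20 per library needed for a test. In cells gated by markers alone, which also took in low-UMI cells, cycling cells and 113 cells of the monocyte class, the difference was -0.93.

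For Il1b the call depended on which macrophages were taken. In the Fcrls cluster it was at 18.4 and 20.6 CP10K against 9.92, 13 and 12.4 CP10K, a fall of 0.73 ± 0.10 on the log2 scale (limma adjusted p = 0.000216). In the Gpnmb cluster it was at 7.32 and 4.87 CP10K against 3.93, 2.46 and 2.14 CP10K, a fall of 1.11 ± 0.18 (adjusted p = 0.000677). In the Ccl12 cluster, with too few Apoe-/- cells to test, it was at 16.6 and 25.7 CP10K against 10.6, 15.3 and 11.2 CP10K. Within each of the 3 clusters every labelled library was below both Apoe-/- libraries, although the class as a whole overlapped. In the Gpnmb cluster the offset between Il1a and Il1b moved by 0.29 in the other direction (exact permutation p = 0.8). The choice of these clusters was made after their values were seen.

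**Figure D3:**
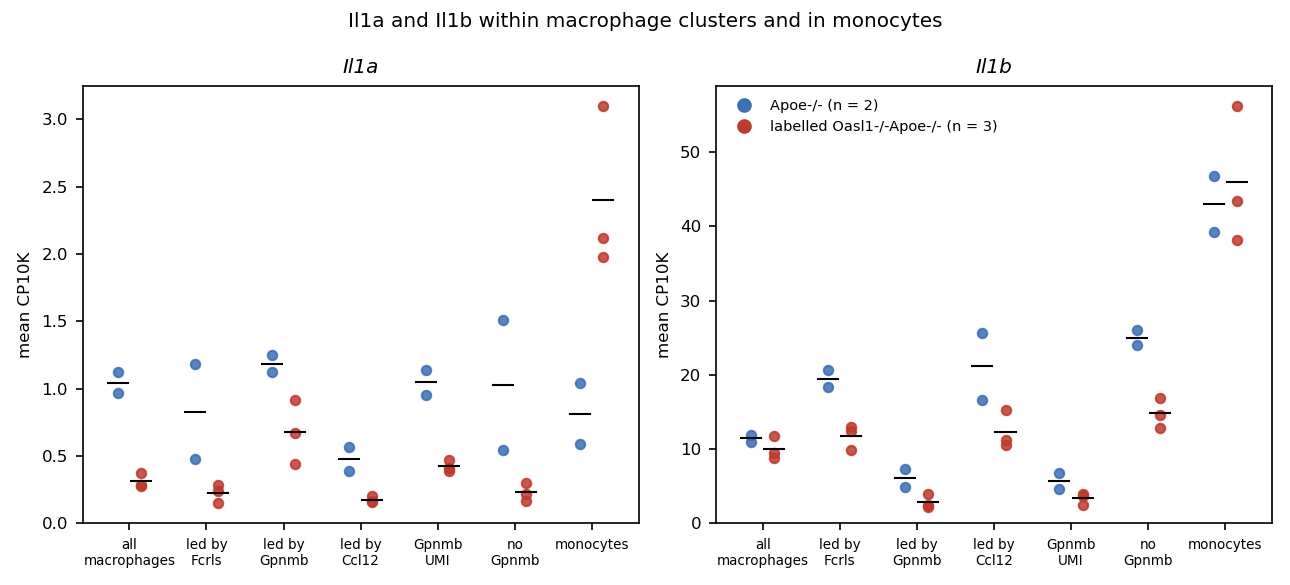
Mean CP10K of Il1a and Il1b per library in all macrophages, in the 3 macrophage clusters, in macrophages with and without a Gpnmb UMI, and in monocytes, on a linear axis. Il1a is lower in the labelled libraries in all macrophages (0.277 to 0.372 against 0.965 and 1.12 CP10K), and Il1b overlaps there but not within the clusters.

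In monocytes Il1a was higher. It stood at 0.587 and 1.04 CP10K in Apoe-/- and at 3.10, 2.12 and 1.98 CP10K in the labelled libraries, a rise of 1.53 ± 0.25 on the log2 scale, 2.89-fold (limma adjusted p = 0.000220). All 3 labelled libraries lay above both Apoe-/- libraries. Il1a UMIs were in 13.5% (21 of 156) of Apoe-/- and 20.1% (53 of 264) of labelled monocytes, and 5.96% and 11.3% after thinning. In every Apoe-/- monocyte with Il1a (8 and 13 cells), and in 93.3% to 95% of those in each labelled library, Il1b was also present. Of all monocytes, with or without Il1a, 82.7% and 85.3% in Apoe-/- and 89.5% to 92.0% per labelled library had an Il1b UMI. Monocyte Il1b, at 39.2 and 46.8 CP10K against 56.2, 43.4 and 38.2 CP10K, overlapped fully between the groups (0.08 ± 0.13, limma adjusted p = 0.861). Of 8 members tested in monocytes, 3 were called, all higher (Il1a, Il1rn and Casp1), where 3.21% of 7560 genes were called.

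Other cell types' markers moved with this class, and their part was not tested. The 6 smooth muscle markers summed to 25.4 and 25.5 CP10K in Apoe-/- monocytes and to 2.02 to 12.5 CP10K in labelled ones, all 6 lower without overlap. The 5 erythroid markers summed to 49.8 and 137 CP10K in Apoe-/- and to 0.58 to 0.658 CP10K in labelled monocytes, all 5 lower without overlap, and the 3 mast cell markers to 5.95 CP10K in Apoe-/- replicate 1 and 0.0473 in replicate 2 against 0 to 0.0139 CP10K. The neutrophil markers summed to 0.236 to 0.575 and 0.341 to 0.684 CP10K, with Cxcr2, Retnlg and Mmp9 at 0, and the monocyte markers to 11.6 to 18.0 and 19.6 to 22.9 CP10K with 1 of 6 higher without overlap. The 7 macrophage markers summed to 21.8 to 29.4 CP10K in Apoe-/- and to 20.7 to 29.2 CP10K in labelled monocytes, 1 higher and 2 lower without overlap. The class named monocytes thus also carried macrophage markers. In macrophages the neutrophil markers summed to 0.355 to 0.371 in Apoe-/- and 0.281 to 0.337 CP10K in labelled libraries, with Cxcr2 at 0, and the monocyte markers to 0.596 to 0.785 and 0.849 to 1.24 CP10K.

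The macrophage and monocyte differences in Il1a were themselves set against each other. The macrophage difference minus the monocyte difference was -3.13 ± 0.41 on the log2 scale (limma adjusted p = 0.217), where 0% of 7053 genes were called. Against neutrophils it was -3.94 ± 0.59 (limma adjusted p = 0.338), where 0% of 5476 genes were called. No member passed in any of the classes set against macrophages, although 3 members against monocytes, 1 against neutrophils, 2 against dendritic cells, 1 against NK/T cells and 2 against endothelial cells had an unadjusted p under 0.05. The share of genes called was 0% against dendritic cells, 0.0732% against NK/T cells, 4.44% against smooth muscle cells, 0.0975% against endothelial cells and 0.113% against fibroblasts. The opposite directions are therefore given as each class's own values, and the difference between the classes did not pass the adjusted test.

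Neutrophils had the highest Il1a level of any class. It was at 1.41 and 1.33 CP10K in Apoe-/- and at 9.77, 7.97 and 4.67 CP10K in the labelled libraries, with 2 and 2 positive cells against 11, 8 and 8. The difference of 2.34 ± 0.58 on the log2 scale passed (limma adjusted p = 0.0137), the only 1 of 9 members called where 0.497% of 6445 genes were called, but the call was lost when any single library was left out, with a pseudocount of 0.01 and with a filter of 0.2 CP10K. Median depths were 788 UMIs in Apoe-/- and 1235 in labelled neutrophils. The 6 smooth muscle markers summed to 56.5 and 37.5 CP10K in Apoe-/- neutrophils and to 13.7 to 24 CP10K in labelled ones, all 6 lower without overlap, and the erythroid markers to 314 CP10K in labelled replicate 2 against 0.557 to 4.75 CP10K in the other libraries, and their part was not tested. Neutrophil Il1b, the highest of any class, was at 82.4 and 87.1 CP10K against 110, 161 and 98.5 CP10K, without overlap (0.51 ± 0.17, limma adjusted p = 0.315).

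Over the 8 named classes the order of Il1b levels was neutrophils (82.4 to 161 CP10K), monocytes (38.2 to 56.2), dendritic cells (20.9 to 34.4) and macrophages (8.78 to 11.9), with no overlap between neighbours over the 5 libraries, and the other named classes were under 0.5 CP10K. For Il1a the ranges of neutrophils (1.33 to 9.77), monocytes (0.587 to 3.10) and macrophages (0.277 to 1.12) each overlapped with the next. In Apoe-/- the Il1a of macrophages (0.965 and 1.12) was near that of monocytes (0.587 and 1.04), and in the labelled libraries the 3 classes stood apart. Dendritic cells, rich in Il1b, had 6 Il1a UMIs in 407 cells. NK/T cells had 0 Il1a UMIs in 723 cells, which allows a share of up to 1.44% of Apoe-/- and 0.584% of labelled cells with a UMI.

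The shares of Il1a UMIs by class were unlike in the 2 groups, and those of Il1b were similar. Macrophages held 85% and 81.6% of Il1a UMIs in Apoe-/- and 33.3%, 27.9% and 50.3% in the labelled libraries, and monocytes held 7.32% and 11.9% against 53.8%, 56.7% and 41.7%. Neutrophils held 1.05% and 1.15% against 7.95%, 12.3% and 4.29%. For Il1b the macrophage share averaged 40% and 38.2%, the monocyte share 30.8% in both groups, and the dendritic share 20.2% and 19.7%. These shares combine cell numbers and RNA per cell and were not tested.

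**Figure D4:**
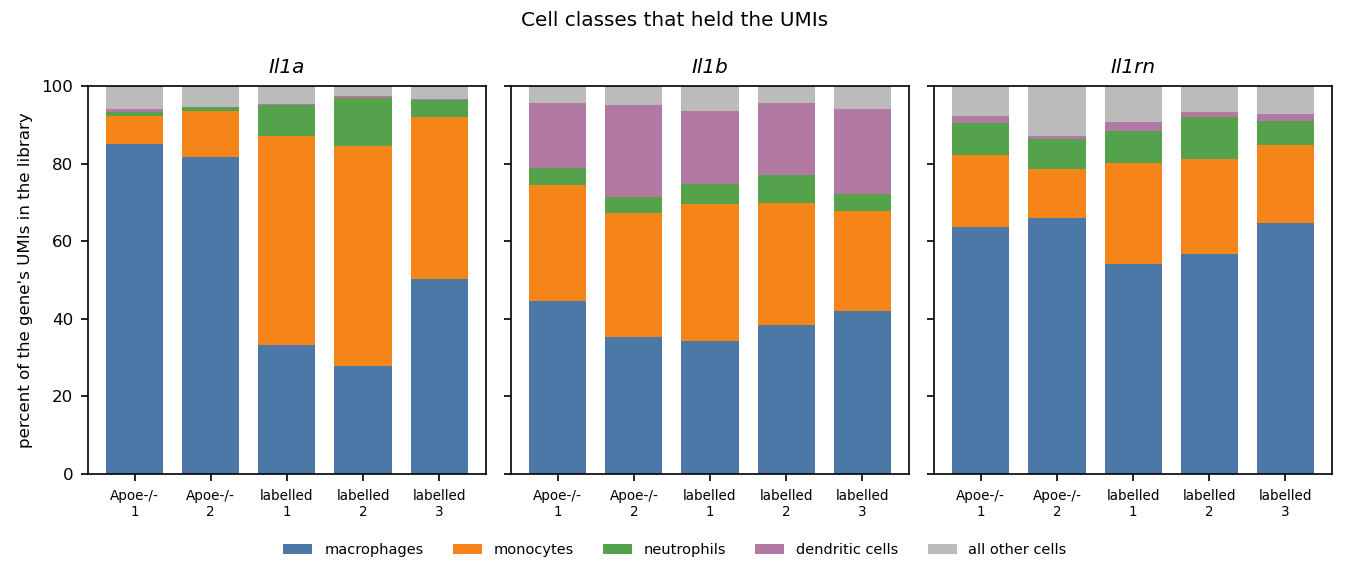
Percent of the UMIs of Il1a, Il1b and Il1rn that came from macrophages, monocytes, neutrophils, dendritic cells and all other cells together, one bar per library. For Il1a the macrophage part is 85% and 81.6% in Apoe-/- and 27.9% to 50.3% in the labelled libraries, whereas that of Il1b is between 34.4% and 44.6% in all 5 libraries.

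Dendritic cells carried Il1b at 20.9 and 24.3 CP10K in Apoe-/- and at 27.5, 34.4 and 28.4 CP10K in the labelled libraries. The groups did not overlap, and the difference of 0.41 ± 0.11 did not pass (limma adjusted p = 0.0902). Of 7 members tested in this class, 1 was called, Il18bp, where 1.65% of 7580 genes were called. Endothelial Il1b, at 0.0899 and 0.498 CP10K against 0.313, 0.161 and 0.216 CP10K, rested on very few cells: in Apoe-/- replicate 2, 121 of 123 UMIs were in 3 of 410 cells. In smooth muscle cells Il1b was 0.01 to 0.0311 CP10K, at 3.55 to 7.64 UMIs per 100 of Lyz2, a myeloid lysozyme, near the 3.94 to 6.57 of macrophages.

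The third ligand, Il18, had low counts. In macrophages it was at 0.238 and 0.236 CP10K against 0.293, 0.245 and 0.276 CP10K (0.16 ± 0.14, limma adjusted p = 0.479), and in monocytes at 0.352 and 0.315 CP10K against 0.787, 0.476 and 0.502 CP10K (0.70 ± 0.34, limma adjusted p = 0.383). Dendritic cells, at 0.112 to 0.192 CP10K, came next. The macrophage and monocyte values of the labelled libraries lay above those of Apoe-/-, by amounts that the spread between libraries did not separate.

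Il1rn, the receptor antagonist, rose in both macrophages and monocytes. In macrophages it was at 1.63 and 1.58 CP10K in Apoe-/- and at 2.30, 2.19 and 2.38 CP10K in the labelled libraries (0.50 ± 0.07, limma adjusted p = 0.000175). In monocytes it was at 3.09 and 2.21 CP10K against 9.34, 6.92 and 7.02 CP10K (1.54 ± 0.18, 2.91-fold, limma adjusted p = 8.96e-07), the largest change of a member in that class by adjusted p. Both classes were fully separated between the groups. In neutrophils it was at 19.0 and 22 CP10K against 40.9, 44.0 and 35.1 CP10K, also separated, and just missed the threshold (0.96 ± 0.27, limma adjusted p = 0.0598). Within macrophages the rise was 0.85 ± 0.13 in the Fcrls cluster and 0.53 ± 0.10 in the Gpnmb cluster (limma adjusted p = 0.0011 and 0.00396). The call was lost with the 3 clusters weighted equally (0.56 ± 0.14, adjusted p = 0.107), which leans on few Apoe-/- cells of the Ccl12 cluster. In dendritic cells Il1rn was at 0.525 and 0.109 CP10K against 0.899, 0.518 and 0.616 CP10K (limma adjusted p = 0.223), overlapping only through Apoe-/- replicate 1. The fit without that library passed (2.16 ± 0.40, limma adjusted p = 0.0121), but it leaves 1 Apoe-/- library with 4 UMIs, assumed to vary like the labelled ones. Neutrophils (19.0 to 44.0 CP10K) were above monocytes (2.21 to 9.34), which overlapped with macrophages (1.58 to 2.38).

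Il1r2, the decoy receptor, was called in no class. Its order was neutrophils (14.9 to 36.5 CP10K), dendritic cells (4.60 to 8.56), monocytes (1.99 to 4.10) and macrophages (0.132 to 0.221), and no neighbours overlapped. In neutrophils it was at 36.5 and 31.8 CP10K in Apoe-/- and at 23.6, 21.2 and 14.9 CP10K in the labelled libraries, lower in each (-0.80 ± 0.29, limma adjusted p = 0.455). In dendritic cells it was at 7.15 and 7.59 CP10K against 8.56, 4.60 and 7.20 CP10K, and in monocytes at 2.21 and 1.99 CP10K against 2.70, 4.10 and 2.09 CP10K. Both overlapped between the groups.

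Il18bp, which neutralises interleukin-18, overlapped between the groups in macrophages, at 2.09 and 1.82 CP10K against 1.96, 1.89 and 1.96 CP10K (-0.01 ± 0.08, limma adjusted p = 0.961). In macrophages gated by markers alone it was lower (-0.24 ± 0.08, limma adjusted p = 0.0375), and in those without a Gpnmb UMI higher (by 1 ± 0.22 on the log2 scale, limma adjusted p = 0.0215). In the Ccl12 cluster, with 10 and 11 Apoe-/- cells and so not tested, it was at 0.683 and 1.22 CP10K against 2.41, 2.36 and 2.42 CP10K, without overlap. In dendritic cells it had 0 UMIs in 147 Apoe-/- cells, a share of up to 2.04%, and 7, 8 and 11 UMIs in the labelled libraries. Against a floor of 3 counts over the Apoe-/- dendritic cells this is at least 4.16-fold higher. The limma call (adjusted p = 0.0236) rests on a gene that passed the filter only through the labelled libraries, and it was lost without Apoe-/- replicate 1 or 2, without labelled replicate 2 or 3 and under limma-voom. In endothelial cells it was at 0.180 and 0.147 CP10K against 0.438, 0.273 and 0.253 CP10K (0.77 ± 0.25, limma adjusted p = 0.0848), and in fibroblasts at 0.138 and 0.201 CP10K against 0.265, 0.290 and 0.232 CP10K (0.52 ± 0.20, limma adjusted p = 0.207). Both were higher in every labelled library without passing the test. Il18bp overlaps Numa1 on the opposite strand, and Il1a and Il1b have opposite-strand partners as well (Gm14023 and Il1bos), and whether counting used strand is not given in the sources used here.

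Il1r1, the signalling receptor, was called in none of the wall cell classes. In smooth muscle cells it was at 0.210 and 0.203 CP10K against 0.199, 0.229 and 0.219 CP10K (0.05 ± 0.09, limma adjusted p = 0.815), the only member tested in that class, where 6.68% of 9003 genes were called. In fibroblasts it was at 0.453 and 0.251 CP10K against 0.435, 0.464 and 0.479 CP10K (0.39 ± 0.20, limma adjusted p = 0.353). In fibroblasts gated by markers alone it was 1.85 ± 0.40, 3.61-fold, and passed (limma adjusted p = 0.0203). Without Apoe-/- replicate 1 it was 0.76 ± 0.18 and passed (limma adjusted p = 0.0168), with a lone Apoe-/- library assumed to vary like the labelled ones, and without Apoe-/- replicate 2 or with summed UMIs it was 0.02. In endothelial cells it was at 0.141 and 0.119 CP10K against 0.138, 0.0974 and 0.221 CP10K. The groups overlapped in all 3 classes. Fibroblasts (0.251 to 0.479 CP10K) were above smooth muscle cells (0.199 to 0.229), which overlapped with endothelial cells (0.0974 to 0.221). The fibroblast class also carried smooth muscle markers, which summed to 143 and 128 CP10K in Apoe-/- and to 100 to 112 CP10K in labelled libraries. Of these 6 markers 5 were lower without overlap, and their part was not tested. The fibroblast markers there summed to 144 to 165 and 163 to 172 CP10K. Smooth muscle cells held 80.1% of Il1r1 UMIs in Apoe-/- and 54.1% in the labelled libraries on average, and fibroblasts 11.6% and 32.7%.

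Of 4 members tested in fibroblasts and 4 in endothelial cells none was called, where 3.87% of 9472 and 3.98% of 9562 genes were called, and 1 in each class had an unadjusted p under 0.05. Il18 in fibroblasts was counted in Apoe-/- replicate 2 alone of the Apoe-/- libraries, and the fit without that library, which passed (1.36 ± 0.28, limma adjusted p = 0.00887), set the labelled libraries against 1 library at 0, so that its size depends on the pseudocount and its spread comes from the labelled libraries. Neither of the 2 members tested in NK/T cells was called, where 1.69% of 8264 genes were called, and both had an unadjusted p under 0.05.

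Nlrp3, the inflammasome sensor, was called in none of the classes. In macrophages it was at 0.791 and 0.876 CP10K against 0.815, 0.808 and 0.840 CP10K (-0.02 ± 0.09, limma adjusted p = 0.920), and in monocytes at 1.95 and 1.74 CP10K against 2.38, 1.56 and 1.5 CP10K (-0.05 ± 0.23, limma adjusted p = 0.961). Neutrophils (2.15 to 5.98 CP10K) overlapped with monocytes (1.5 to 2.38), monocytes were above macrophages (0.791 to 0.876), and macrophages were above dendritic cells (0.472 to 0.7). The groups overlapped in all 4 classes.

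Casp1, which the NLRP3 inflammasome activates, rose in macrophages and monocytes. In macrophages it was at 0.271 and 0.319 CP10K in Apoe-/- and at 0.616, 0.55 and 0.623 CP10K in the labelled libraries (0.91 ± 0.12, 1.88-fold, limma adjusted p = 4.11e-05). Casp1 UMIs were in 18.2% and 29.7% of macrophages, and in 0.0539% and 0.232% of smooth muscle cells. In monocytes it was at 0.141 and 0.0893 CP10K against 0.493, 0.376 and 0.526 CP10K (1.65 ± 0.40, limma adjusted p = 0.0157), on 62 UMIs, and the call was lost when Apoe-/- replicate 2 or any labelled library was left out (adjusted p from 0.0602 to 0.149) and with limma-voom on summed UMIs (adjusted p = 0.0942). The groups did not overlap in either class.

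In dendritic cells Casp1 was at 0.129 and 0.0741 CP10K against 0.351, 0.296 and 0.503 CP10K (limma adjusted p = 0.0634), and in NK/T cells at 0.215 and 0.259 CP10K against 0.558, 0.571 and 0.415 CP10K (limma adjusted p = 0.275). Both were higher in every labelled library without passing. Endothelial Casp1 overlapped, at 0.229 and 0.253 CP10K against 0.142, 0.277 and 0.168 CP10K. Within macrophages Casp1 passed in the Gpnmb cluster (0.82 ± 0.17, limma adjusted p = 0.00718) and not in the Fcrls cluster (0.39 ± 0.20, adjusted p = 0.387). The call was lost with the 3 clusters weighted equally (0.50 ± 0.29, adjusted p = 0.372), which leans on few Apoe-/- cells of the Ccl12 cluster.

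**Figure D5:**
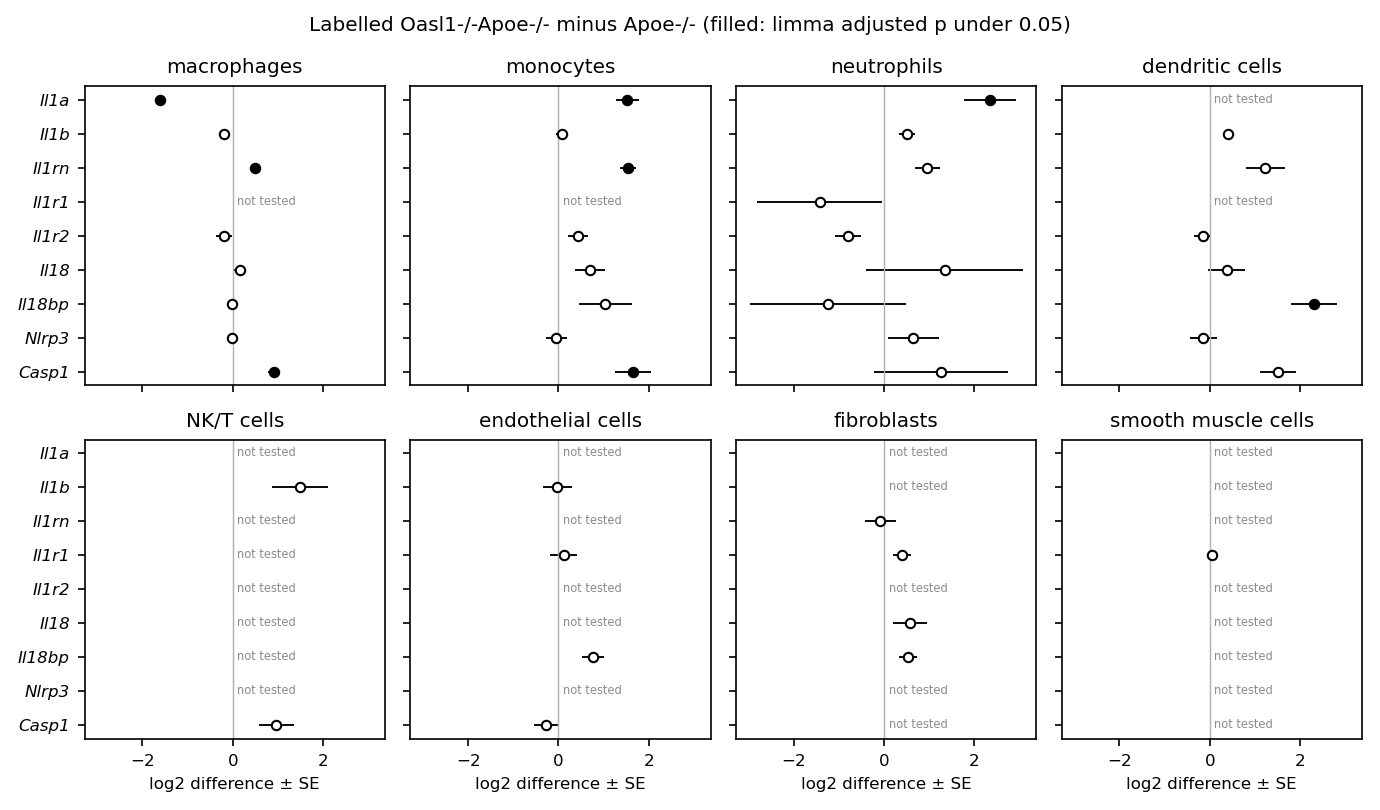
Log2 difference of each tested member between the labelled libraries and Apoe-/- in each class, with bars of 1 SE; filled points had a limma adjusted p under 0.05. Il1a is at -1.60 in macrophages and at 1.53 in monocytes, and Il1rn is above 0 in both.

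Genes whose level over 9 cell classes was most like that of Il1a were Klra2 (Pearson r = 0.989), C5ar1 (0.983), Clec4d (0.982), Pilrb1 (0.978) and Arg2 (0.972), out of 9836 genes. For Il1b they were Gm34084 (0.990), Gpr35 (0.989), Ptafr (0.987), Nfam1 (0.983) and Nlrp3 (0.979). Points are class means of the same 5 libraries, so the correlations describe a shared distribution over cell types only.

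The other genes of the pathway were counted from 4 fixed lists. In the whole aorta, 13 of 15 interleukin-1-responsive genes tested were higher and none lower (median 0.91 against -0.03 over all genes), 7 of 15 receptor signalling genes were higher, and of 9 inflammasome genes 6 were higher and 1, Txnip, was lower. The largest rise was that of Ccl2, a monocyte chemokine, from 0.569 and 0.521 CP10K to 2.96, 2.64 and 2.71 CP10K (2.24 ± 0.06, limma adjusted p = 8.08e-09). Il6 rose by 1.28 ± 0.20 and Lcn2, an iron-binding protein, by 1.19 ± 0.08. Pycard, the inflammasome adaptor, rose by 0.56 ± 0.06, and Il33, another ligand of the family, by 1.10 ± 0.15. These counts stand beside the 41.1% of genes called in the whole aorta and the different cell shares. Over the 4 lists 28 of 41 genes tested were called, 27 higher and 1 lower. With the same cluster shares in every library 6 of 41 were called, 5 higher and 1 lower, where 6.5% of 9819 genes were called.

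Within classes the responsive genes moved unlike each other. In macrophages, where 17.7% of all genes were called, of 10 tested Ccl2 rose (1.13 ± 0.10) while Cxcl1 (-0.78 ± 0.15) and Cxcl2 (-0.36 ± 0.06), neutrophil chemokines, and Vcam1 (-0.43 ± 0.14) fell. The NF-κB inhibitor Nfkbia, itself an NF-κB target, also fell there (-0.42 ± 0.07), the only 1 of 16 signalling genes, and of 13 inflammasome genes Nlrc5 (0.91 ± 0.17) and Gsdmd (0.40 ± 0.13), the pore that releases interleukin-1β, rose. Over the 4 lists 3 of 39 genes tested were higher in macrophages and 4 lower. Without the Ccl12 cluster 0 were higher and 5 lower (9.53% of all genes called). In the Fcrls and Gpnmb clusters 0 were higher and 3 lower in each (2.04% and 4.04%). With the 3 clusters weighted equally 1 was higher and 0 lower (1.46%). In macrophages gated by markers alone 7 were higher and 1 lower (16.3%). In smooth muscle cells, with 6.68% of genes called, 4 of 10 responsive genes rose and none fell: Cxcl2 (1.06 ± 0.10), Cxcl1 (0.66 ± 0.09), Vcam1 (0.61 ± 0.10) and Ptgs2 (0.36 ± 0.06). Macrophage markers in this class summed to 0.325 and 0.331 CP10K in Apoe-/- and to 0.616 to 0.834 CP10K in labelled libraries. Of these 7 markers 5 were higher without overlap, and their part was not tested. In fibroblasts, with 3.87% called, 5 of 17 rose, led by Ccl2 (1.44 ± 0.16) and Cxcl2 (0.75 ± 0.16), with Il33 also higher (0.86 ± 0.21). The smooth muscle markers that this class also carried were lower in the labelled libraries, as given above, and their part was not tested. In endothelial cells, with 3.98% called, 3 of 14 rose (Il6 1.97 ± 0.33, Ccl2 1.72 ± 0.21, Lcn2 1.71 ± 0.22) and 2 fell (Cxcl1 -0.55 ± 0.14, Icam1 -0.33 ± 0.10). Other markers moved with the endothelial class, and their part was not tested. The 5 lymphatic endothelial markers summed to 0.172 and 0.271 CP10K in Apoe-/- and to 5.17 to 11.8 CP10K in labelled endothelial cells, all 5 higher without overlap, the fibroblast markers to 6.35 to 6.53 and 11.6 to 19.1 CP10K (4 of 6 higher), the macrophage markers to 0.666 to 1.35 and 2.18 to 3.42 CP10K (4 of 7 higher) and the erythroid markers to 6.61 to 35.0 and 0.403 to 0.652 CP10K (5 of 5 lower). In monocytes, with 3.21% of genes called, 2 of 14 responsive genes rose and none fell, Ccl2 (1.41 ± 0.14) and Cxcl2 (0.70 ± 0.12). In neutrophils, with 0.497% called, 3 of 12 passed, all higher: Cxcl2 (0.74 ± 0.10), at 264 and 280 CP10K against 450, 584 and 359 CP10K, Cxcl1, at 0 and 1.08 CP10K against 8.34, 7.17 and 1.83 CP10K, and Ccl2, at 0 in both Apoe-/- libraries and at 4.37, 8.16 and 2.26 CP10K in the labelled ones. Ccl2 thus passed the filter only through the labelled libraries. These calls were all lost when any labelled library was left out and with the replicate block, and 1 was left with a filter of 0.2 CP10K. None of 10 responsive genes passed in dendritic cells and none of 11 in NK/T cells. Cxcl1 and Cxcl2 therefore fell in macrophages and rose in smooth muscle cells and fibroblasts, each by its own test in the classes as clustered. In macrophages gated by markers alone, where 1 listed gene was called lower, they were not both called lower.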

How the data were processed

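Droplet 3′ single-cell RNA libraries of 5 aortic arch cell suspensions were analysed. Per the labels and the submitters' processing notes, reads were mapped to mm10 with Cell Ranger 3.1.0 and handled in Seurat 4.0.3. Per the study's methods, cells with enough genes and few mitochondrial reads were kept, and doublets were removed with DoubletFinder before deposit. The authors deposited natural log values, ln(1 + UMIs per 10000), for 18260 cells, fewer than the study gives. The sparsest cell held 201 genes, and the mitochondrial share peaked at 9.99% of UMIs. UMIs were recovered from these values, and 100% of values came out whole within 0.01.

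Cells were clustered (scanpy 1.11.5, leidenalg 0.10.2, resolution 1) without the listed genes and named from fixed markers. CP10K was averaged per library and class. Genes with a mean of at least 0.05 CP10K, in classes with at least 20 cells per library, were tested with limma 3.58.1 (R 4.3.3, lmFit and eBayes with trend) on log2(CP10K + 0.05), which understates changes of low genes, with Benjamini-Hochberg adjustment over all genes tested. The script was tested on simulated data. The members and lists were chosen with earlier results of these data known. Named genes were the 9 members in every class, genes of the other lists past the threshold, and the 5 most like Il1a and Il1b. Neutrophils and single clusters were added after the data were seen. RefSeq promoter sequences were of GRCm38.p6, the assembly behind mm10. Neutrophils (21 to 27 cells per library) and members with few UMIs have few counts behind their values.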

Additional observations from a re-analysis of the deposited data

Results flagged for a closer look

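The difference between the labelled libraries and Apoe-/- in Il1a had opposite directions in macrophages and monocytes in every library, and the macrophage difference minus the monocyte difference was -3.13 on the log2 scale. It was -3.94 for macrophages against neutrophils. Both were marked because every labelled library lay below both Apoe-/- libraries in 1 class and above both in the other. The tests of the differences themselves did not pass after adjustment (limma adjusted p = 0.217 and 0.338), and the neutrophil value rests on 4 Apoe-/- and 27 labelled cells with an Il1a UMI.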

How the results depend on the processing

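The direction of Il1a in macrophages was negative and past the threshold in every alternative run, from -1.71 to -1.50 with 1 library left out and -0.93 with cells gated by markers. Of 217 alternatives for the 14 single members called in a class or in the whole aorta, 190 kept direction and threshold, 25 lost the threshold and 2 reversed. The 2 were Il1b (-0.14) and Nlrp3 (-0.04) in the whole aorta with the same cluster shares. That setting holds the cell shares constant but leans in part on clusters with few Apoe-/- cells. Of 555 alternatives for the 36 single members that were not called, 15 were called and 49 changed sign. Members called in the whole aorta numbered 7, but 4 with a filter of 0.2 CP10K, where fewer genes were tested (2768 of 5521 called), and 3 with the same cluster shares (638 of 9819 called). In macrophages they numbered 3, but 6 in cells without a Gpnmb UMI and 2 with the clusters weighted equally. Equal weights lean on few Apoe-/- cells of the Ccl12 cluster.

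Il1b in macrophages ranged from -0.32 to -0.12 with 1 library left out and was +0.05 with the mean of the deposited log values (limma adjusted p = 0.548). It passed with the clusters weighted equally (-0.79), in macrophages without (-0.76) and with (-0.76) a Gpnmb UMI, and, in settings chosen after seeing the data, in the Fcrls cluster (-0.73), the Gpnmb cluster (-1.11) and without the Ccl12 cluster (-0.39). The offset of Il1a from Il1b ranged from -1.54 to -1.23 with 1 library left out and was 0.29 in the Gpnmb cluster.

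The count of members called in neutrophils was 1, but 0 with a filter of 0.2 (10 of 3618 genes called), 0 to 0 with 1 library left out and 2 at clustering resolution 2 (35 of 6496). In dendritic cells it was 1, but 0 with a pseudocount of 0.2, with a filter of 0.2 and with limma-voom on summed UMIs, and 0 to 1 with 1 library left out. It was 2 in cells with at least 1000 UMIs (165 of 7603 genes called). In fibroblasts it was 0, but 0 to 1 with 1 library left out, 1 with marker-gated cells (158 of 9452 genes called) and 1 in the Clec3b cluster (262 of 9663). Member effects in macrophages against other classes numbered 0, but 3 with a pseudocount of 0.2, 2 with no filter and 4 with the mean of the deposited log values. The 3 were against monocytes (40 of 7053 genes called), neutrophils (10 of 5476) and endothelial cells (107 of 7177). The 2 were against smooth muscle cells (394 of 13652). The 4 were against monocytes (147 of 7053), neutrophils (19 of 5476), endothelial cells (710 of 7177) and fibroblasts (866 of 7089). Other pathway genes past the threshold ranged from 45 to 57 over the classes with 1 library left out. Where no value bears on it, the cause was not tested.

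Samples share replicate numbers only in 2 pairs. Deviations of same-numbered libraries correlated at 0.01 and 0.04, against -0.04 to 0.03 for other pairs. With 2 Apoe-/- libraries, the deviations of replicate 1 are those of replicate 2 with the sign turned. The check therefore cannot decide whether the numbers pair the libraries. With the replicate block, members called were 0 in neutrophils, 1 in endothelial cells, 8 in the whole aorta and 3 each in macrophages and monocytes. Over all genes, 0 of 6445, 381 of 9562, 3017 of 9836, 1312 of 7899 and 260 of 7560 were called, in the same order. A marker gate for dendritic cells, monocytes and neutrophils, cells with at least 1000 UMIs for neutrophils, and the class differences under limma-voom were not run. Where 1 Apoe-/- library was left, it was assumed to vary like the labelled ones. Low counts limit Il18, Casp1 and Il1r1.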

Other observations

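Il1rn was also set against Il1b within each library. In monocytes there were 7.89 and 4.73 Il1rn CP10K per 100 of Il1b in Apoe-/- and 16.6, 15.9 and 18.4 in the labelled libraries (log2 difference 1.45, two-sided exact permutation p = 0.1, the smallest possible). In macrophages the values were 13.7 and 14.4 against 26.2, 18.8 and 25.0 (0.70, exact permutation p = 0.2). In dendritic cells, 2.52 and 0.451 against 3.27, 1.5 and 2.17, the groups overlapped.

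The fibroblast class held 2 clusters in which Il1r1 differed in direction. In that led by Clec3b it was at 0.329 and 0.118 CP10K in Apoe-/- and at 0.606, 0.774 and 0.880 CP10K in the labelled libraries (1.66 ± 0.40, limma adjusted p = 0.00817), and in that led by Sfrp2 at 0.508 and 0.326 CP10K against 0.377, 0.332 and 0.333 CP10K (-0.21 ± 0.19, limma adjusted p = 0.629). The clusters were chosen after seeing the data, and their difference was not tested.

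In the unnamed cluster of 705 low-UMI cells with macrophage markers, Il1a was at 0.435 and 0.0891 CP10K against 0.194, 0.381 and 0.190 CP10K, and Il1b at 1.56 and 1.62 against 1.68, 1.58 and 0.824 CP10K, so neither was separated between the groups. Il18bp there was at 2.71 to 3.61 CP10K in all 5 libraries. In cycling macrophages, with 10 to 54 cells per library, Il1a was at 0.328 and 0.147 against 0.142, 0.0260 and 0.0754 CP10K and Il1b at 4.58 and 3.56 against 7.75, 6.34 and 7.23 CP10K. Il1rap, the co-receptor of IL1R1, was at 0.0260 and 0.0419 CP10K in the whole aorta in Apoe-/- and at 0.0468, 0.0429 and 0.0436 CP10K in the labelled libraries, under the level needed for a test.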
